A study of Mus musculus with 6 samples.

Results

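The dual-specificity phosphatases (Dusp genes) were followed in the visual cortex of adult mice after the loss of one eye. Members were all probe sets whose platform gene symbol is Dusp and a number, which gave 9 of the 8251 genes named on the array (Dusp1, Dusp2, Dusp6, Dusp8, Dusp9, Dusp11, Dusp12, Dusp16 and Dusp19). They were read by 13 of 12422 probe sets that are not controls. The mouse RefSeq gene table names 24 Dusp genes, and the other 15 were not analysed here. Dusp1 and Dusp6 were singled out with their fall in these samples already known, so their change is given as a description and is compared with the rest of the family.

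The study compared 3 arrays of deprived visual cortex, contralateral to the removed eye, with 3 arrays of non-deprived visual cortex, ipsilateral to it. All samples were from wild-type (C57Bl6) mice, of which 4 lost one eye at postnatal day 100 and were killed 4 days later. Every RNA therefore came from an enucleated animal, and the non-deprived hemisphere is the control within the same mice. The series text speaks of pooled samples without giving which mice entered each array, so replicates may be technical and the p-values reach no further than the spread between these arrays.

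Mitogen-activated protein (MAP) kinases are switched on when an upstream kinase phosphorylates a threonine and a tyrosine in their activation loop. Dusp enzymes of the MAP kinase phosphatase class remove both phosphates and so end the signal. Several of their genes are themselves induced by the pathway they inhibit, which makes them a negative feedback, and in neurons synaptic activity is a known inducer. Dusp1 acts in the nucleus on p38, JNK and ERK, whereas Dusp6 acts in the cytoplasm and prefers ERK.

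The upstream sequences of Dusp1, Dusp6 and Dusp8 are shown because the first pair fell together in deprived cortex while Dusp8 did not pass the test. They are the 250 bases before the RefSeq start (GRCm38.p6), written 5′ to 3′ on the gene's strand, at chr17:26508473-26508722 (minus strand) for Dusp1, chr10:99262981-99263230 (plus strand) for Dusp6 and chr7:142095285-142095534 (minus strand) for Dusp8. Capitals mark matches on either strand to TGACGTCA, the palindromic cAMP response element, to its shorter core TGACG, which lies within it, or to TGANTCA, the AP-1 element.
Dusp1: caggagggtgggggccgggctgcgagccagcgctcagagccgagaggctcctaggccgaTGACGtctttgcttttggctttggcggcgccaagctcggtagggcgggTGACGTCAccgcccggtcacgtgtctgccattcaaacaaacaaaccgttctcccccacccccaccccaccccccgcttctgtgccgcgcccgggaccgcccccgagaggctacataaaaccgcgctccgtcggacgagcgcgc
Dusp6: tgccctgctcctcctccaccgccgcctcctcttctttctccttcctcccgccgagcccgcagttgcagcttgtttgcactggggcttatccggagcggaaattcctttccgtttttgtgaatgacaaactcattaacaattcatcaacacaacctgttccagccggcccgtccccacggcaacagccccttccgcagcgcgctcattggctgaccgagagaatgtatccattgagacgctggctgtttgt
Dusp8: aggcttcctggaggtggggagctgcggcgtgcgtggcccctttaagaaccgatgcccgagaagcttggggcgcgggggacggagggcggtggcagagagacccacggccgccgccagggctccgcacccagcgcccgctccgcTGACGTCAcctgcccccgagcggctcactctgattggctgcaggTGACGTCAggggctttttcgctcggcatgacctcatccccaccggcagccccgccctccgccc

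TGACGTCA was present in 1.55% of all 32851 promoter windows of this length, TGACG in 17.8% and TGANTCA in 6.75%. Dusp1 held 1 copy of TGACGTCA, beginning 143 bases before the start, and a separate TGACG that begins 191 bases before it. Dusp8 held 2 copies of TGACGTCA, at 107 and 63 bases. The Dusp6 window held none of the 3 motifs. The CArG box, the serum response element's core, was found in 1.47% of all windows and in none of the 7 array Dusp genes that the promoter table covers. Of the other 4, Dusp11 and Dusp16 each held 1 TGACG, and Dusp2 and Dusp12 held none of the motifs above. CACGTG, present in 6.02% of all windows, was found in Dusp1 (126 bases before the start) and Dusp2 (109 bases) only. TATAAA, present in 12.4% of all windows, was in none of the 7. The letters marked in Dusp1 thus also occur in Dusp8 and not in Dusp6. A match is a description and not a shown binding site, and the lack of one says only that these letters are not in this window.

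Signals are MAS5 intensities, which summarise the probes of a probe set in arbitrary brightness units that cannot be compared between probe sets, and the 6 arrays had been scaled by the authors to one level (2% trimmed mean 500.3 on each). Median signal was 206.4 to 219.7 on deprived and 202.8 to 218.3 on non-deprived arrays. The 3′ to 5′ signal ratio of β-actin, a measure of RNA integrity, was 1.26 to 1.63 on deprived and 1.28 to 1.51 on non-deprived arrays. Non-deprived replicate 3 stood apart in 1 control, an 18S ribosomal RNA probe set at 2689 against 661 to 981 on the other arrays, and values without it are given where they bear on Dusp1 and Dusp6. The neuronal marker Snap25 was bright on every array (18538 to 20058 deprived, 19884 to 20953 non-deprived). Camk2a, also on the neuronal list, was more spread (1923 to 4516 deprived, 2185 to 2765 non-deprived). Gad1 overlapped only narrowly (2906 to 3203 deprived, 3188 to 3624 non-deprived). The summed signal of neuronal and cortical markers (8 of 10 listed genes had a probe set) was 28277 to 33770 on deprived and 29813 to 32728 on non-deprived arrays. Summed markers of astrocytes, oligodendrocytes, microglia, endothelium, blood, thalamus, hippocampus and striatum also overlapped between the groups. For hippocampus the overlap was narrow (1354.5 to 1876.2 deprived, 1002.9 to 1383.4 non-deprived). It was also narrow for astrocytes (8330.3 to 10115.6 deprived, 9961.6 to 10871.1 non-deprived). Of the 30 tested markers on these 9 lists, 0 passed the threshold (limma). An unadjusted p under 0.05 was found for 2 of the 30, the astrocyte gene Aldoc (log2 change -0.25, SE 0.10) and Wfs1 of the hippocampus list (0.41, SE 0.17), and for 5.09% of all tested probe sets. Slc17a7, the vesicular transporter of cortical excitatory neurons, was not analysed here.

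Probe sets with a mean signal over all arrays of at least 134.7, the top 60%, were tested on log2(signal + 16), which makes the change of dim probe sets smaller than on the linear scale. Of the 13 Dusp probe sets, 7 for 6 genes were tested and 6 were too dim. The dimmest member tested was a Dusp8 probe set with a mean of 264.7, and the brightest left out was that of Dusp11 with a mean of 107.6. Dusp9, Dusp11 and Dusp16 had no tested probe set. Of the 7 tested, 2 were lower in deprived cortex at an adjusted p under 0.05 and 0 were higher, where 0.161% of all 7453 tested probe sets were called lower and 0.0134% higher (limma, Benjamini-Hochberg adjustment over all tested probe sets; 2 Dusp probe sets had an unadjusted p under 0.05, as did 5.09% of all). Those 2 were Dusp1 and Dusp6, the genes already singled out for this contrast, so nothing further is read from the count.

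**Figure D1:**
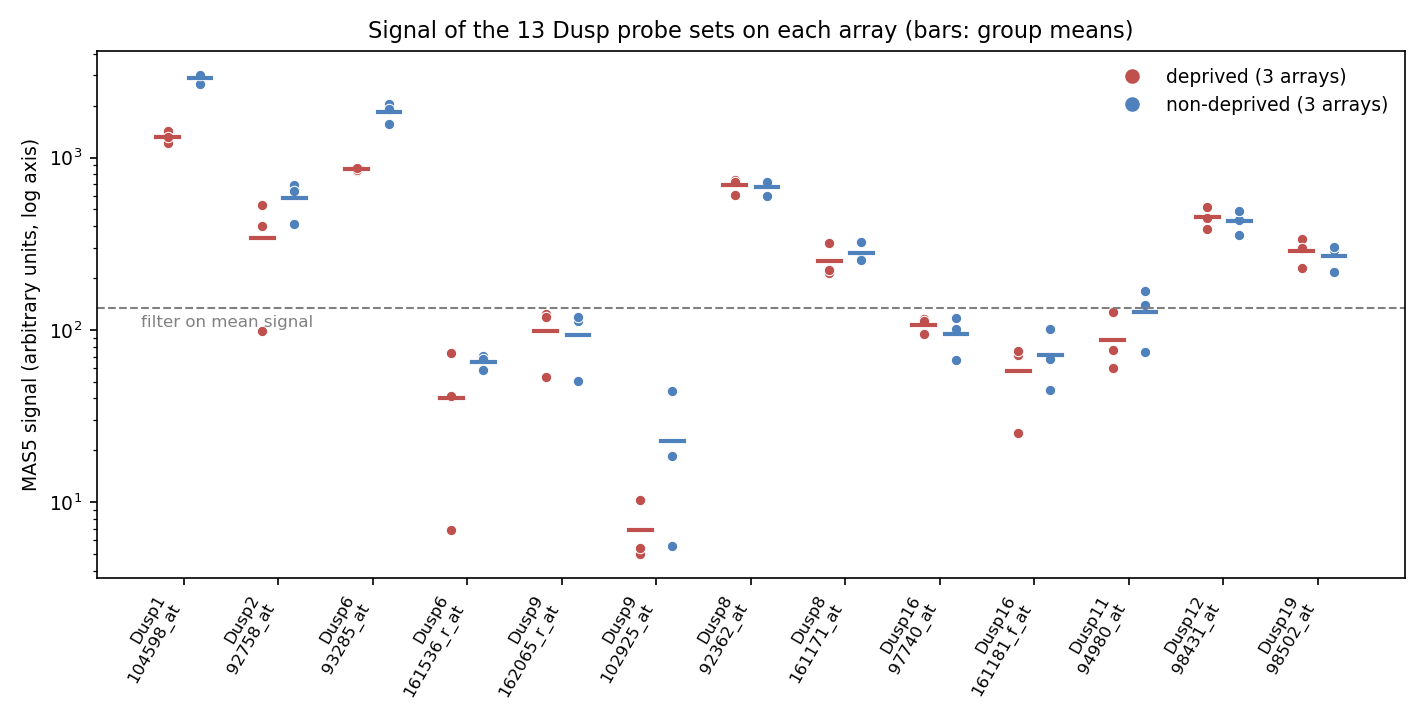
MAS5 signal (log axis, arbitrary units) of each of the 13 Dusp probe sets on the 3 deprived (red, left) and 3 non-deprived (blue, right) arrays, with bars at the group means and the 134.7 filter on mean signal dashed. Deprived and non-deprived arrays separate for Dusp1 and for the bright Dusp6 probe set, and overlap for the other 11 probe sets.

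Among the nuclear, inducible phosphatases, Dusp1 had signals of 1433, 1207 and 1314 on deprived arrays, against 3024, 2660 and 3025 on non-deprived arrays. All deprived arrays were below all non-deprived arrays, and the highest deprived value was 1.86-fold below the lowest non-deprived one. The means were 1318 ± 113 in deprived and 2903 ± 210 in non-deprived cortex (SD, n = 3 arrays each), a 2.20-fold lower signal. The log2 change, deprived minus non-deprived, was -1.13 (SE 0.11, 95% interval -1.37 to -0.89, limma adjusted p = 0.0014). It ranked 6 of 7453 by p and 18 by size of fall. Replicate spread was of similar relative size in the groups, with a coefficient of variation of 8.59% in deprived and 7.24% in non-deprived cortex. Without that array of high 18S, non-deprived replicate 3, the log2 change was -1.10 (limma adjusted p = 0.011). In bulk tissue, fewer cells that express Dusp1 and less Dusp1 RNA per cell cannot be told apart, and the same holds for each gene below.

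Dusp2, a nuclear phosphatase best known from activated lymphocytes, gave an unsettled result. Its signals were 398.9, 98.1 and 530.8 on deprived arrays, against 688.4, 637.7 and 410.8 on non-deprived arrays. The groups overlapped, because deprived replicate 3 exceeded non-deprived replicate 3, and deprived replicate 2 lay far below the rest. The log2 change was -0.97 (SE 0.49, 95% interval -2.07 to 0.12), close in size to that of Dusp1, but its standard error was several times larger and it did not pass (limma adjusted p = 0.97). Without deprived replicate 2 the change was -0.29 (SE 0.24), and without deprived replicate 3 it was -1.42 (SE 0.48). A fall of the size seen for Dusp1 and an absence of change both lie within its interval.

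Among the cytoplasmic, ERK-directed phosphatases, the bright Dusp6 probe set had signals of 837.4, 849 and 872.6 on deprived arrays, against 2050, 1914 and 1560 on non-deprived arrays. Deprived arrays were all lower, and the highest of them was 1.79-fold below the lowest non-deprived array. The means were 853 ± 17.9 in deprived and 1841 ± 253 in non-deprived cortex (SD, n = 3 each), a 2.16-fold lower signal. The log2 change was -1.09 (SE 0.12, 95% interval -1.36 to -0.81, limma adjusted p = 0.0059), ranked 8 of 7453 by p and 22 by size of fall. Deprived arrays lay close together (coefficient of variation 2.10%), and non-deprived arrays were more spread (13.7%). The lowest non-deprived value was that of non-deprived replicate 3, which had the high 18S value and without which the log2 change was -1.20 (limma adjusted p = 0.0060). Without non-deprived replicate 2 it was -1.05 and no longer passed (limma adjusted p = 0.053), nor did it pass in a fit without the intensity trend (limma adjusted p = 0.074).

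A second, dim Dusp6 probe set, an _r type that was designed with fewer constraints, did not settle the matter. It had signals of 41.1, 73.3 and 6.9 on deprived arrays, against 70.5, 67.7 and 58.2 on non-deprived arrays, which overlap. Its log2 change in a fit without the filter was -0.73 (SE 0.49, 95% interval -1.84 to 0.37), an interval that holds both 0 and the change of the bright probe set. Dusp9, another ERK-directed member, had 2 dim probe sets with overlapping groups. One read 123.8, 118.2 and 53.4 on deprived arrays and 112.4, 118.3 and 50.4 on non-deprived arrays, and the other stayed at or below 43.9 throughout (5.0 to 10.3 deprived, 5.6 to 43.9 non-deprived). No change of Dusp9 was detectable at these signals.

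The JNK- and p38-directed members did not pass. Dusp8, a phosphatase with strong expression in brain, had 2 tested probe sets. The brighter read 745.1, 605.6 and 718.2 on deprived arrays, against 709.9, 596.5 and 724.3 on non-deprived arrays, with means of 690 ± 74.0 in deprived and 677 ± 70.0 in non-deprived cortex. Each deprived array had a non-deprived array near it. The log2 change was 0.03 (SE 0.14, 95% interval -0.29 to 0.34, limma adjusted p = 0.99), an interval that lies wholly above that of Dusp1 and that of Dusp6. The dimmer Dusp8 probe set averaged 251 ± 58.7 in deprived and 278 ± 37.8 in non-deprived cortex (log2 change -0.15, SE 0.22, 95% interval -0.65 to 0.35). Dusp16, a JNK-directed phosphatase, was too dim on both its probe sets (94.1 to 114.9 deprived and 67.1 to 116.5 non-deprived on the brighter), with log2 changes of 0.17 (SE 0.33) and -0.28 (SE 0.43) without the filter.

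The atypical members lack the MAP kinase binding domain, and none of them passed. Dusp12, an atypical phosphatase with a zinc-binding domain, read 518.3, 445.6 and 384.7 on deprived arrays, against 436.6, 492.2 and 353.4 on non-deprived arrays. Its log2 change was 0.07 (SE 0.18, 95% interval -0.33 to 0.48). Dusp19, which has been linked to the JNK pathway, read 228.8, 334.5 and 299 on deprived arrays, against 216.6, 289.9 and 300.8 on non-deprived arrays. Its log2 change was 0.09 (SE 0.22, 95% interval -0.41 to 0.58). For both genes the groups overlapped over most of their range. Dusp11, which removes phosphates from RNA 5′ ends, was too dim to test, at 60.2 to 126.8 on deprived and 73.9 to 168.7 on non-deprived arrays.

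**Figure D2:**
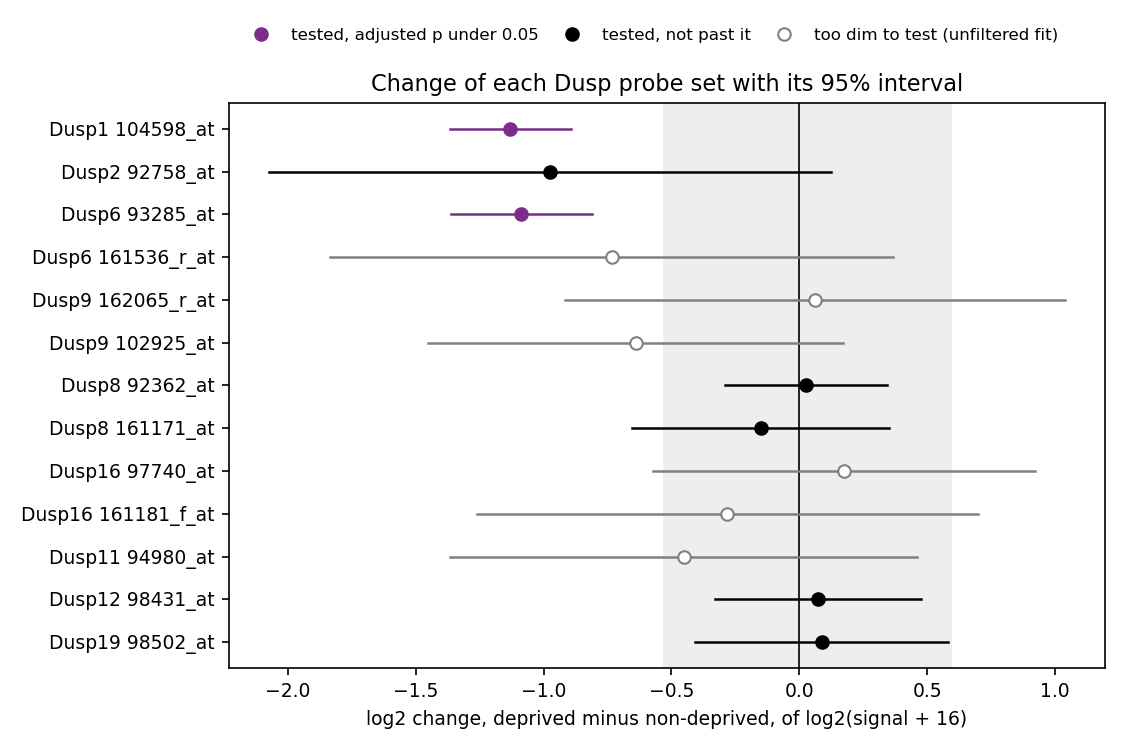
Log2 change (deprived minus non-deprived) of each Dusp probe set with its 95% interval: purple passed the threshold, black was tested and did not pass, open grey was too dim and comes from the unfiltered fit. The shaded band, -0.53 to 0.59, holds the central 95% of all tested probe sets. Dusp1 (-1.13) and Dusp6 (-1.09) have intervals left of the band, whereas the wide interval of Dusp2 (-0.97) reaches from left of the band into it.

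Of the 5 tested probe sets other than Dusp1 and Dusp6, which stand for 4 genes, 2 had a lower and 3 a higher mean log2 signal in deprived cortex, and 0 had an unadjusted p under 0.05 in limma. Their median log2 change was 0.03, beside 0.01 over all tested probe sets. The groups did not overlap for 2 of the 7 tested Dusp probe sets, again Dusp1 and Dusp6, and for 10.1% of all tested probe sets. Of the 6 dim probe sets, 4 had a lower and 2 a higher mean log2 signal in deprived cortex, and the groups of all 6 overlapped (9.88% of all untested probe sets did not overlap).

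Measured within each array, Dusp1 stood above the median of those 5 probe sets by 1.80, 1.80 and 1.73 log2 units on deprived arrays, against 2.75, 2.40 and 3.04 on non-deprived arrays. For Dusp6 the distance was 1.04, 1.30 and 1.15 on deprived arrays, against 2.19, 1.93 and 2.09 on non-deprived arrays. Levels of different probe sets have no common scale, so only the difference between the groups has a meaning here. It was -0.95 for Dusp1 and -0.91 for Dusp6, with no overlap of the arrays, and no test was made of it because both genes were singled out with their fall known. The within-array difference between Dusp6 and Dusp1 themselves averaged -0.61 ± 0.14 in deprived and -0.66 ± 0.25 in non-deprived cortex (log2, SD, n = 3 each). Their balance thus moved by 0.04 log2 units between the groups, less than the spread of either group.

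**Figure D3:**
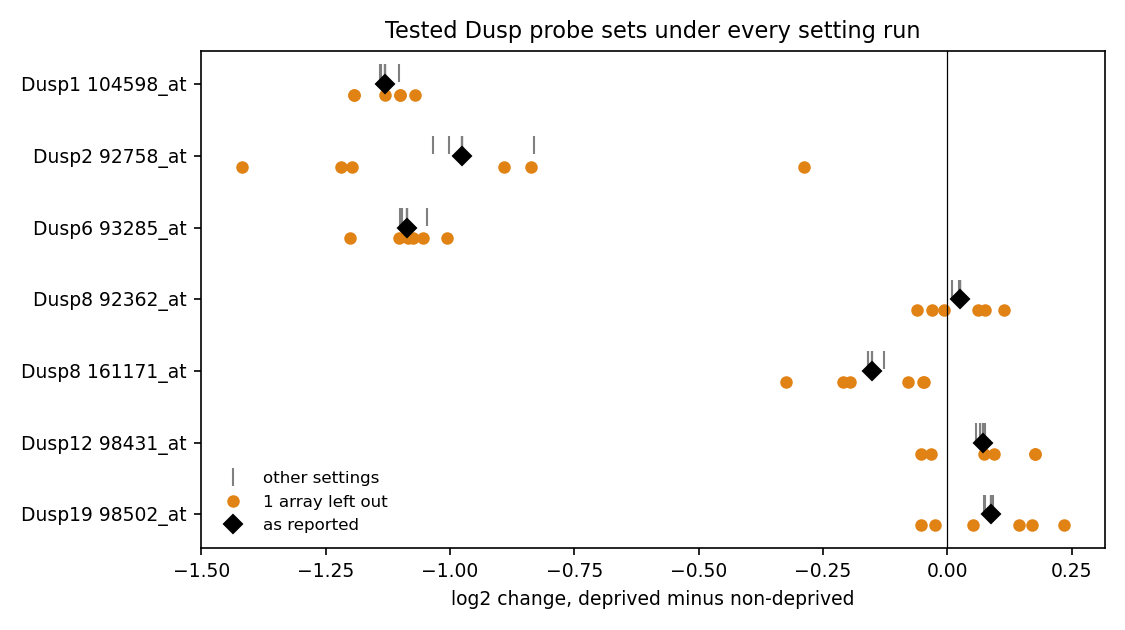
Log2 change (deprived minus non-deprived) of the 7 tested Dusp probe sets as reported (black diamonds), with 1 array left out (orange points) and under the other settings (grey ticks). Dusp1 (-1.19 to -1.07) and Dusp6 (-1.20 to -1.01) keep to narrow ranges, Dusp2 runs from -1.42 to -0.29, and Dusp12, Dusp19 and the brighter Dusp8 probe set lie on either side of 0.

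Likeness of profile was measured as the root-mean-square difference between log2 signals centred on each probe set's mean over the 6 arrays, so it is set mainly by the gap between the groups. Over 6715 tested probe sets with 1 gene symbol the median difference was 0.61 log2 units from Dusp1 and 0.60 from Dusp6. Nearest to Dusp1 were Junb (0.10), Nr4a1 (0.11), Ier2 (0.13), Tcf25 (0.16) and Egr1 (0.17). Nearest to Dusp6 were Ier2 (0.07), Egr1 (0.12), Junb (0.12), Tcf25 (0.15) and an _r probe set of Rps13 (0.17). Junb and Egr1 encode transcription factors, Nr4a1 an orphan nuclear receptor, and Ier2 an immediate-early protein. Dusp1 and Dusp6 were each other's sixth nearest, at 0.17 log2 units (rank 6 from both sides). Tcf25 had 223 ± 37.9 in deprived and 511 ± 61.9 in non-deprived cortex but did not pass (log2 change -1.15, SE 0.19, limma adjusted p = 0.067), and neither did Rps13, a ribosomal protein gene (-1.12, SE 0.24, limma adjusted p = 0.27). Signal of the Rps13 probe set can come from near-identical copies.

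**Figure D4:**
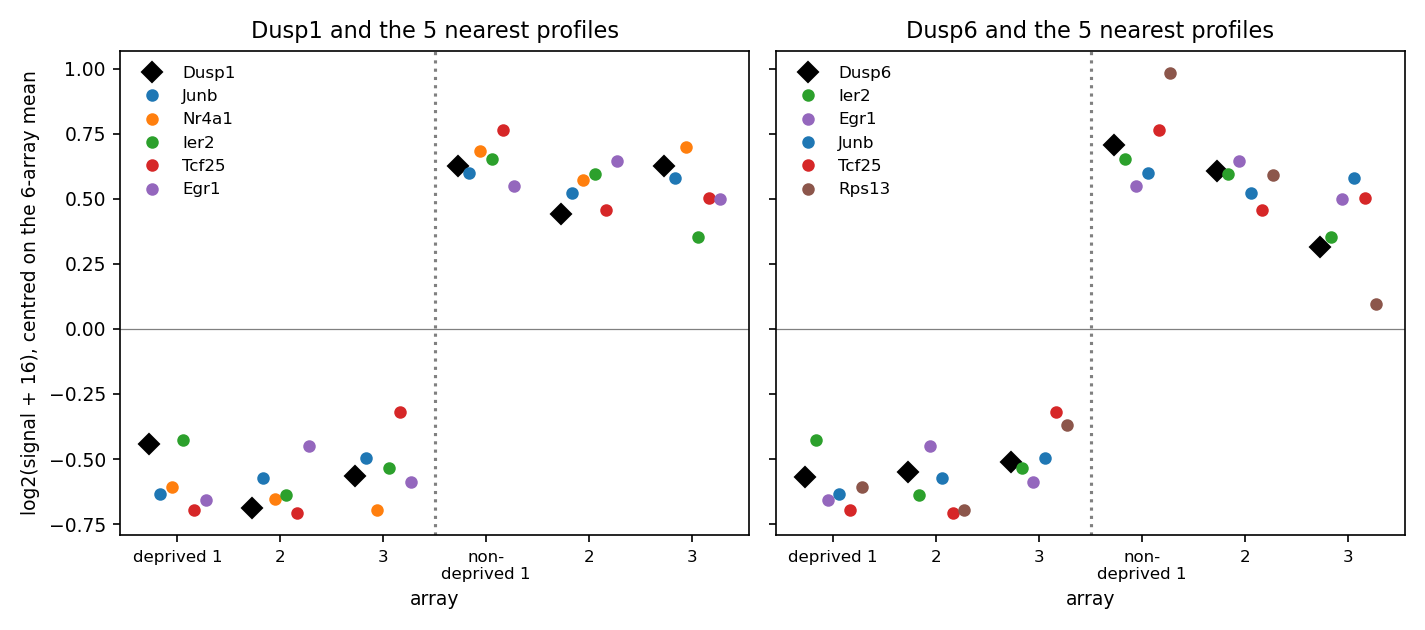
Log2(signal + 16), centred on the mean of the 6 arrays, for Dusp1 (left panel) and Dusp6 (right panel) as black diamonds with their 5 nearest profiles as coloured points, deprived arrays left of the dotted line and non-deprived arrays right of it. Every gene lies below 0 on deprived and above 0 on non-deprived arrays, and Dusp6 is lowest among its non-deprived arrays in replicate 3.

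The kinases that Dusp enzymes act on, and the proteins that activate them, showed no called change. In the ERK cascade list (15 of 31 listed genes tested, 1 probe set per gene), 0 fell and 0 rose, where 0.177% of 5653 genes were called lower and 0.0177% higher (limma; 0 of the 15 had an unadjusted p under 0.05, against 5.18% of all genes). Their median log2 change was -0.03, beside 0.01 over all genes tested. Map2k1, the kinase directly upstream of ERK, had -0.06 (SE 0.10). Rasgrp1, a Ras activator, averaged 433 ± 67.7 in deprived and 737 ± 342 in non-deprived cortex with overlapping groups (log2 change -0.65, SE 0.30). Nras, a Ras GTPase, had 0.26 (SE 0.16), and -0.02 (SE 0.19) on its other probe set.

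The list of JNK, p38 and ERK5 cascade genes includes the JNK and p38 pathways, which Dusp1, Dusp8 and Dusp16 oppose. On this list 0 of 17 tested genes passed in either direction, against 0.177% called lower and 0.0177% higher of all genes (limma). An unadjusted p under 0.05 was found for 0 of the 17, against 5.18% of all genes (limma), and the median log2 change was 0.07. Map3k7, an upstream kinase of JNK and p38, averaged 202 ± 24.1 in deprived and 135 ± 16.1 in non-deprived cortex (log2 change 0.53, SE 0.27, limma adjusted p = 0.97). A dim, untested Map3k7 probe set had -0.15 (SE 0.22) in the unfiltered fit. Map3k3 averaged 429 ± 30.4 in deprived and 344 ± 32.5 in non-deprived cortex (0.31, SE 0.16, limma adjusted p = 0.97), while its other 2 probe sets had -0.10 (SE 0.33) and -0.09 (SE 0.30). The groups did not overlap for these Map3k7 and Map3k3 means, both higher in deprived cortex. They also did not overlap for Map3k8, which was lower (-0.48, SE 0.26). Groups did not overlap for 10.1% of all tested probe sets. Among other feedback inhibitors and phosphatases of these pathways, 0 of 13 tested genes passed, against 0.177% called lower and 0.0177% higher of all genes (limma). Of the 13, 0 had an unadjusted p under 0.05 (limma). Their median was -0.03, with a range of -0.22 (Ppm1a, SE 0.13) to 0.16 (Ppm1b, SE 0.15). Ppp2cb, a catalytic subunit of protein phosphatase PP2A, had -0.15 (SE 0.11). Spry4 and Spred2, which inhibit Ras to ERK signalling and are likewise induced by it, had -0.14 (SE 0.28) and -0.03 (SE 0.13), and Ptpn5, a neuronal tyrosine phosphatase of ERK, had -0.07 (SE 0.14). Map2k1, Map3k8, Ppm1b, Spry4, Spred2 and Ptpn5 were chosen after their values were seen.

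Several members of the list of ERK-responsive transcription factor genes, which also holds immediate-early genes such as Ier2, were already known to fall in these samples. The list is given only for comparison. Of 20 tested genes 6 (Fos, Egr2, Junb, Nr4a1, Egr1 and Ier2) fell and 0 rose, against 0.177% called lower and 0.0177% higher of all genes, and the median change was -0.37 (log2). The other 14 did not pass, and the highest log2 change on the list was 0.37. An unadjusted p under 0.05 was found for 9 of the 20, against 5.18% of all genes (limma). The called genes with the largest change were Fos, Egr2 and Junb (log2 changes of -2.05, -1.57 and -1.43, limma adjusted p = 0.00014, 0.0011 and 0.0014). The Junb value is from its brighter probe set, an _r type. These falls were larger than those of Dusp1 and Dusp6, though the differences between genes were not tested. A dim, untested Fos probe set had -0.64 (SE 0.36) in the unfiltered fit. A second Junb probe set had -1.13 (SE 0.10, limma adjusted p = 0.0011), close to the change of Dusp1. Btg2 and Fosb had -0.90 (SE 0.16) and -0.69 (SE 0.14) and did not pass (limma adjusted p = 0.14 and 0.23). By their log2 change, Dusp1 and Dusp6 thus lie within the range of the 6 called genes of this list, next to Egr1 (-1.13) and Ier2 (-1.07). Ier2 lost its call in all 6 fits with 1 array left out (limma adjusted p 0.059 to 0.18), and the other 5 of these genes passed in each.

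**Figure D5:**
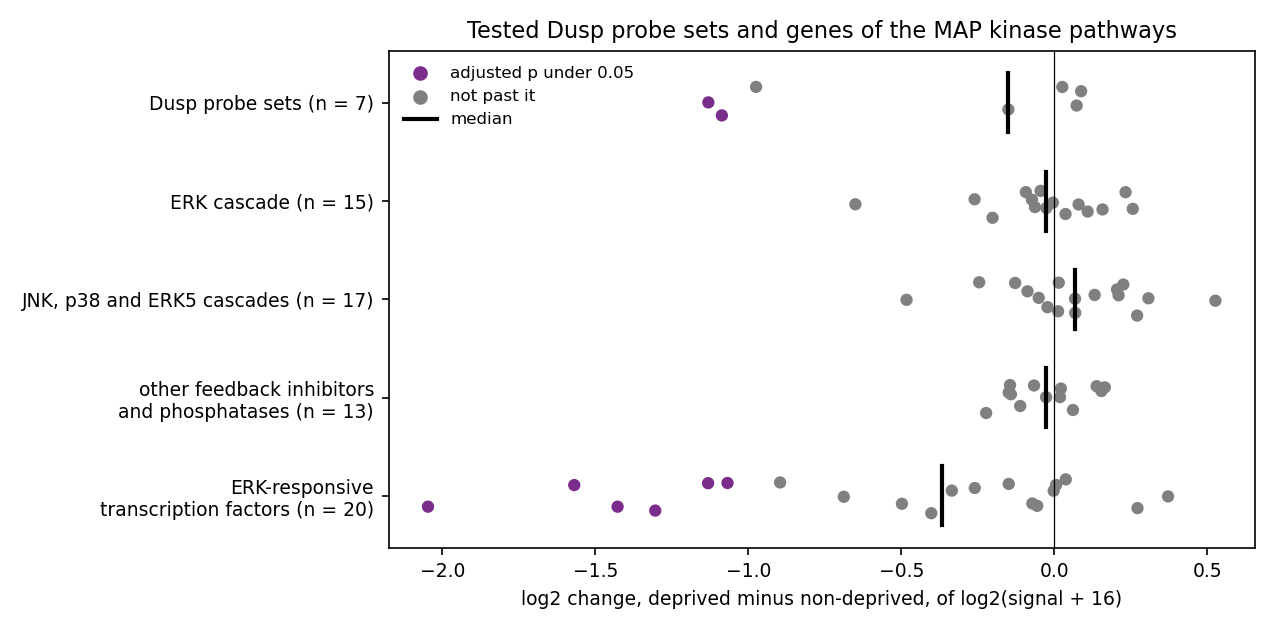
Log2 change (deprived minus non-deprived) of the 7 tested Dusp probe sets and of the tested genes on 4 lists, 1 point each, with medians as black bars; purple points passed the threshold. Called points appear only in the Dusp row (2) and in the transcription factor row (6), and the points of the 3 rows of kinases, activators and other inhibitors lie between -0.65 and 0.53.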

How the data were processed

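The authors deposited 1 table of MAS5 signal intensity (linear scale, 12488 probe sets, 6 arrays); per the submitters' processing notes the tool was MAS5, whose version and settings are not given in the sources used here. The deposited columns shared one trimmed mean and were used without further scaling. Gene names came from GEO's platform annotation, checked by Entrez ID against RefSeq (10839 of 10855 probe sets with 1 symbol matched; 396 had several symbols and 1237 none, and were left unnamed).

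The 66 control probe sets were set aside, and log2(signal + 16) of the 7453 brightest probe sets (top 60% by mean signal) was fitted with limma 3.58.1 in R 4.3.3 (lmFit, eBayes with an intensity trend, group as the only term, two-sided, Benjamini-Hochberg). Dim Dusp probe sets come from the same fit without the filter. The fit was also run on simulated data with independent noise on each array. That setting does not represent pooled or shared mice, so no support is drawn from it. Detection calls and scanner files were not analysed, and 3 arrays per group limit the precision.

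All Dusp genes are named, and, per list, the 3 called genes with the largest change and the 2 others with the smallest p; exceptions are marked. The likeness rule names 5 profiles per gene. Members and lists were chosen with earlier results of these data known. Alternatives were quantile normalization, pseudocounts of 1 and 64, no filter, the top 40%, the replicate number as a block, each array left out, no intensity trend, and 1 probe set per gene.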

Additional observations from a re-analysis of the deposited data

How the results depend on the processing

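Dusp1 kept its direction and its call under all 14 alternatives (log2 change -1.19 to -1.07, limma adjusted p 0.00059 to 0.041). Dusp6 kept its direction under all 14 and its call under 12. Its log2 change of -1.09 no longer passed without the intensity trend (limma adjusted p = 0.074), which left 1 Dusp probe set called, and with 1 array left out it ranged from -1.20 to -1.01, with 1 to 2 Dusp probe sets called. The within-array difference to the other tested Dusp probe sets was -1.12 to -0.79 for Dusp1 and -0.98 to -0.84 for Dusp6 over the 9 alternatives run. For Dusp1 it moved by less than the SD of non-deprived arrays (0.32) but by more than that of deprived arrays (0.042) without non-deprived replicate 2 and without non-deprived replicate 3. With 1 array left out, members near 0 changed sign without passing: Dusp12 ranged from -0.0529 to 0.177, Dusp19 from -0.0529 to 0.234 and the brighter Dusp8 probe set from -0.0605 to 0.115. Over all tested probe sets, calls with 1 array left out numbered 7 to 10 (7 to 9 lower, 0 to 1 higher), against 13, with 7 without non-deprived replicate 2 and 8 without non-deprived replicate 3 or deprived replicate 3. Probe sets called higher numbered 0 without the filter and 2 without the intensity trend, against 1. The ERK cascade, the JNK, p38 and ERK5, and the other feedback lists had 0 calls under all 14. The median of the transcription factor list was -0.53 without deprived replicate 2 and -0.55 without non-deprived replicate 3. With the replicate number as a block, Dusp1 (limma adjusted p = 0.0034) and Dusp6 (0.020) kept their calls and 10 probe sets passed in all. Same-numbered arrays did not deviate together (correlations across probe sets of 0.003, 0.049 and -0.020), and the numbers were not treated as a pairing. These correlations cannot show whether same-numbered arrays share mice, which is not given. Dim probe sets are limited by background, which cannot be set without detection calls.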
